A study of Mus musculus with 4 samples.

Results

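Inhibitory receptors are membrane proteins that restrain T cell activation, and Pdcd1, Lag3, Tigit, Ctla4, Havcr2, Cd160 and Btla encode 7 of them. The genes were taken by symbol from a fixed list of names, which was chosen with earlier results of these data known. All 7 were found among the 27998 genes measured. T cells came from the pancreatic islets of pre-diabetic female NOD mice, a strain in which T cells attack the insulin-producing beta cells, at 16 weeks and at 8 weeks of age. The labels name no mutation and no treatment, and how many mice were pooled into a library was not given in the sources used here. Cells were sorted alive, by DAPI, and by an antibody to the beta chain of the receptor, and each age gave 1 library of messenger RNA and 1 of receptor sequences. The title of the series concerns stem-like T cells and how far Cd4 cells resist exhaustion, a state of chronically stimulated T cells that carry several inhibitory receptors at once.

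PD-1 (the product of Pdcd1), Btla and Tigit carry tyrosine motifs in their tails that bind signalling enzymes after the ligand is engaged, and PD-1 thereby dampens signals of the T cell receptor and of Cd28. Ctla4 competes with Cd28 for the ligands Cd80 and Cd86 and is constitutive in regulatory T cells, the suppressive cells marked by the transcription factor Foxp3. Lag3 binds MHC class II, Tigit binds Cd155 in competition with the activating receptor Cd226, Havcr2 (Tim-3) is known from strongly exhausted cells, and Btla and Cd160 share the ligand HVEM. All of these genes are also induced by ordinary activation, so their RNA alone does not define exhaustion.

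Cells were divided by their UMIs (molecular barcodes, so that a captured RNA is counted once). Conventional Cd4 cells had a Cd4 UMI and none of Cd8a, Cd8b1 or Foxp3. Foxp3-positive Cd4 cells had a Cd4 and a Foxp3 UMI and no Cd8 UMI, and Cd8 cells had a Cd8a or Cd8b1 UMI and no Cd4 UMI. Foxp3-positive cells numbered 93 at 16 weeks and 116 at 8 weeks, Cd8 cells 322 and 296, and conventional Cd4 cells 649 and 658, out of 1934 and 1875 cells kept. Most other kept cells had no UMI of Cd4 or Cd8 and were left undivided. A UMI of Cd3d, Cd3e or Cd3g, subunits of the T cell receptor complex, was found in 99.8% and 99.4% of kept cells. Ikzf2, a regulatory T cell gene not used for the division, was detected in 87.1% of Foxp3-positive cells at 16 weeks and 82.8% at 8 weeks. It was also detected in 19.7% of conventional Cd4 cells at 16 weeks and 31.3% at 8 weeks, and how many of those were regulatory cells without a captured Foxp3 RNA was not tested.

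The 16-week RNA library held 8183747 UMIs and the 8-week library 8659371, with medians of 2930 and 2975 UMIs per kept cell, and 5 barcodes occurred in both. With 1 library per age there were no replicates, no difference was tested, and every interval given is a 95% interval that covers counting error only. A difference between the ages is thus a difference between these libraries, and in summed counts fewer cells of a state and less RNA per cell cannot be told apart. The depths differed between classes. Medians were 6003 and 5813 UMIs in Foxp3-positive cells, 3259 and 3378 in Cd8 cells, and 3051 and 3205 in conventional Cd4 cells, at 16 and 8 weeks. Cells with at least 2 productive beta chains, which can be doublets or dual-receptor cells, made up 33 of 93 and 31 of 116 Foxp3-positive cells, 23 of 322 and 32 of 296 Cd8 cells, and 85 of 649 and 58 of 658 conventional Cd4 cells.

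Since a gene is found more often in a deeper cell, each cell was thinned by random draw to 1700 UMIs, and shallower cells were left out. This kept 91 and 108 Foxp3-positive cells, 307 and 285 Cd8 cells, and 622 and 607 conventional Cd4 cells at 16 and 8 weeks. Cells without a UMI of any T lineage gene, in which receptor RNA would be background, were too few to set a floor. There were 3 at 16 weeks and 11 at 8 weeks, with medians of 1716 and 1928 UMIs, and 2 and 7 of them were deep enough for thinning. After thinning none of these held as many as 2 receptor genes, and 1 held a Btla UMI. Levels are given as CPM, the gene's UMIs scaled to a common total of 1000000 UMIs of a class, and are compared within a gene only, because UMI counts were not scaled by gene length.

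The sequences shown here are the rearranged receptor chains that define the clones, and the promoters of Pdcd1 and Tigit. These are 2 of the 3 receptor genes that were lower in Cd8 cells at 16 weeks than at 8 weeks. The third was Cd160. A clone was a set of cells of 1 library with the same alpha and beta chain, by V gene and CDR3 nucleotides, the CDR3 being the junction that makes a receptor individual. For the largest 8-week clone (TRAV21-DV12 with TRBV13-2, 14 cells), for the largest clone of conventional Cd4 cells alone at 16 weeks (TRAV5-4 with TRBV19, 6 cells) and for the largest 8-week clone of Cd8 cells alone (TRAV16N with TRBV17, 5 cells), the CDR3 read from the receptor libraries, 5′ to 3′ and with no base marked, were these.
16-week Cd4 clone, alpha CDR3: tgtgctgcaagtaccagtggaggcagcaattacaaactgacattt
16-week Cd4 clone, beta CDR3: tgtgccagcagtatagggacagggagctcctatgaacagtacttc
8-week Cd4 clone, alpha CDR3: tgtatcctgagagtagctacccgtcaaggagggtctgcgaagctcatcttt
8-week Cd4 clone, beta CDR3: tgtgccagcgggggatatgaacagtacttc
8-week Cd8 clone, alpha CDR3: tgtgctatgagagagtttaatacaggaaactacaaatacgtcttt
8-week Cd8 clone, beta CDR3: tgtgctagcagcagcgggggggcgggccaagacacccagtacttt

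The promoters of Pdcd1 and Tigit, 250 bases before to 50 after the annotated start, are from RefSeq on GRCm38.p6 and lie on the minus strand. Capitals mark the NFAT core GGAAA or its reverse complement TTTCC, the motif of a factor activated by T cell receptor signals.
Pdcd1 promoter, chr1:94052504-94052803: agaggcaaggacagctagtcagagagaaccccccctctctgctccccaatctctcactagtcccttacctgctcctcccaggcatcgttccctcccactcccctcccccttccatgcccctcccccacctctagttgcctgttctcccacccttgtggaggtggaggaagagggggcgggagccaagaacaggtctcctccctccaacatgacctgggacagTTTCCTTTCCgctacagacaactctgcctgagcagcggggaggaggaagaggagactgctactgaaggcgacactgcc
Tigit promoter, chr16:43664135-43664434: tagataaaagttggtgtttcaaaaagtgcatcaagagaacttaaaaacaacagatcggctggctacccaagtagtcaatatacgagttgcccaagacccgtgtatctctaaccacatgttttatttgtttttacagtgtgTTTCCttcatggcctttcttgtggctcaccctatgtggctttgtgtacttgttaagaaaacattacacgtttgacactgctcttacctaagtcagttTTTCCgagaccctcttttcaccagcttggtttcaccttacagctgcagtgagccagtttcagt
Each of these windows held 2 cores, and at least 1 core occurred in 61.3% of all 32851 promoters of this length, so a match here is common. The AP-1 motif TGAGTCA or TGACTCA (5.2% of all promoters) and the TCF motif TTCAAAG or CTTTGAA (5.14%) were in neither window. Promoters were matched for 6 of the 7 genes, and the Lag3 promoter was not analysed here. Of the windows not shown, that of Ctla4 held 1 NFAT core and those of Havcr2 and Btla held 0. For Cd160, the window starting at 3:96829302 held 0 cores, and that starting at 3:96814472 held 1 core and 2 TCF motifs. Whether these motifs relate to the levels was not tested. In the annotation of the same build, GENCODE M21, Pdcd1 spans 1:94038305-94052553 and Tigit 16:43648867-43664146, both protein-coding genes on the minus strand.

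Foxp3-positive Cd4 cells carried the most receptor genes per cell. At 16 weeks, 2 or more of the 7 genes were detected at equal depth in 48 of 91 Foxp3-positive cells (52.7%, 42.0% to 63.3%) and in 106 of 622 conventional Cd4 cells (17.0%, 14.2% to 20.2%). At 8 weeks the counts were 54 of 108 Foxp3-positive cells (40.2% to 59.8%) and 145 of 607 conventional Cd4 cells (23.9%, 20.5% to 27.5%). The difference was 35.7 percentage points at 16 weeks (25.1 to 46.0) and 26.1 at 8 weeks (16.2 to 35.9), larger than the counting error. Without the cells of at least 2 beta chains the differences were 32.8 and 23.2 percentage points, and with Foxp3 itself read only after thinning, an alternative added after the values were seen, they were 32.7 and 25. The size depended on the depth read, with 13.8 and 16.6 percentage points at 1000 UMIs per cell and 50.3 and 29.0 without thinning, in the same direction. In Cd8 cells the share was 10.1% at 16 weeks (6.96% to 14.0%) and 15.4% at 8 weeks (11.4% to 20.2%). Cd8 minus conventional Cd4 was -6.94 percentage points at 16 weeks (-11.2 to -2.19) and -8.45 at 8 weeks (-13.6 to -2.79). At 1000 UMIs per cell the 8-week gap was -3.54, and at 2500 UMIs the 16-week gap was -11.9. The gap ended when conventional Cd4 cells with an Il2ra or Ikzf2 UMI were left out, at 0.24 and 0.97 percentage points. Cd8 cells with these UMIs stayed in, and Ikzf2 was detected in 17.1% and 22.0% of Cd8 cells at 16 and 8 weeks. The order of the classes thus depended on which conventional Cd4 cells were counted.

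**Figure D1:**
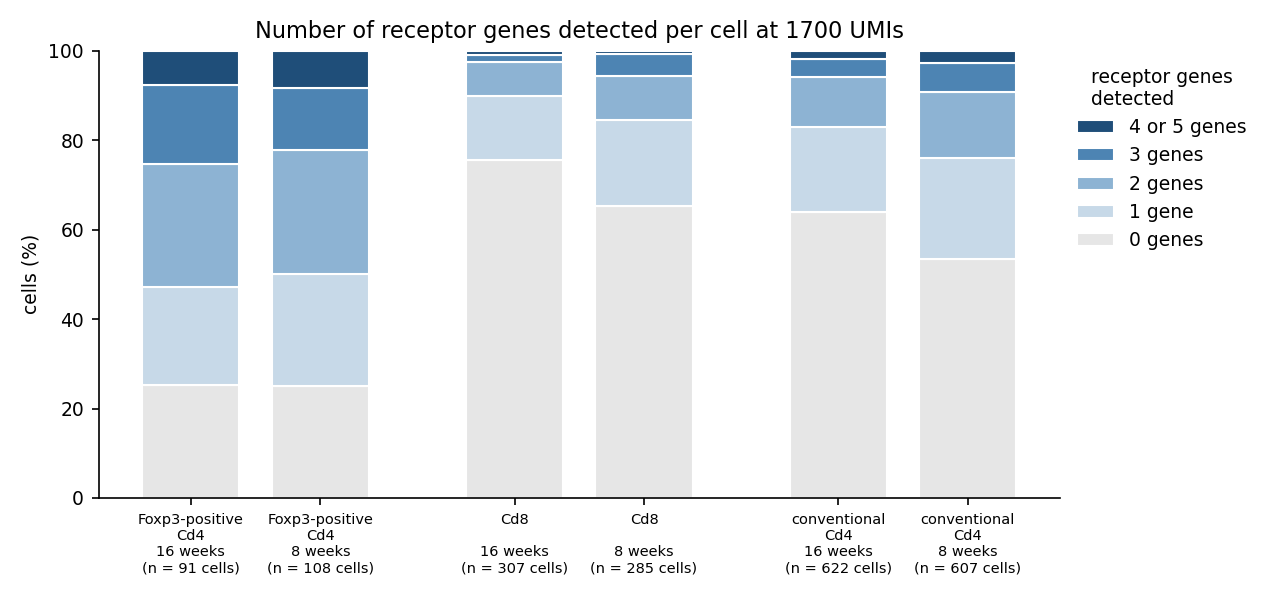
Stacked bars give the percentage of cells (vertical axis) with 0, 1, 2, 3, or 4 or 5 of the 7 receptor genes detected at 1700 UMIs per cell, by class and age. Foxp3-positive bars reach 2 or more genes in 52.7% of cells at 16 weeks and in 54 of 108 cells at 8 weeks, Cd8 bars in 10.1% and 15.4%, and conventional Cd4 bars in 17.0% and 23.9%.

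At least 3 genes were detected in 25.3% and 22.2% of Foxp3-positive cells, in 2.61% and 5.61% of Cd8 cells, and in 5.79% and 9.23% of conventional Cd4 cells at 16 and 8 weeks. No cell of these classes held more than 5 genes at this depth. No receptor gene was detected in 23 of 91 and 27 of 108 Foxp3-positive cells, 232 of 307 and 186 of 285 Cd8 cells, and 398 of 622 and 324 of 607 conventional Cd4 cells. Detection is low at this depth, so a cell without a UMI need not lack the RNA.

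The most frequent sets of genes were small in number. Among the 106 conventional Cd4 cells with 2 or more genes at 16 weeks, Lag3 with Tigit was the most frequent set (18 cells), and among the 145 such cells at 8 weeks it was Pdcd1 with Lag3 (17 cells) and then Lag3 with Tigit (16 cells). In Foxp3-positive cells, sets with Ctla4 led at both ages. Lag3, Tigit and Ctla4 together led at 16 weeks with 8 of 48 cells, and Pdcd1, Lag3, Tigit and Ctla4 together led at 8 weeks with 8 of 54 cells. For Cd8 cells the pair Pdcd1 with Lag3 was found in 4 of 31 such cells at 16 weeks, tied with Lag3 and Ctla4, and in 8 of 44 at 8 weeks.

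In conventional Cd4 cells, detection of Pdcd1, Lag3, Tigit or Ctla4 went with detection of the other three of these genes at both ages, whereas for Btla and Cd160 the direction differed between pairs. Among conventional Cd4 cells at 16 weeks, Tigit was found in 44 of 92 cells with a Lag3 UMI (47.8%, 37.3% to 58.5%) and in 44 of 530 without one (8.30%, 6.10% to 11.0%). The shares at 8 weeks were 42.9% of cells with Lag3 (34.3% to 51.7%) and 12.9% of cells without it (9.99% to 16.2%). Lag3 was found in 26 of 70 Pdcd1-detected and 66 of 552 Pdcd1-undetected conventional Cd4 cells at 16 weeks, and in 38.6% and 17.5% at 8 weeks. In Cd8 cells, Lag3 was found in 10 of 25 Pdcd1-detected cells (40.0%) and 8.16% of the others at 16 weeks, and in 19 of 42 (45.2%) and 12.8% at 8 weeks. In Foxp3-positive cells Lag3 was found in 12 of 26 Pdcd1-detected cells and 21 of 65 others at 16 weeks, and in 14 of 30 and 22 of 78 at 8 weeks. Btla was found in 4 of 92 Lag3-detected and 28 of 530 other conventional Cd4 cells at 16 weeks, and in 12 of 118 Tigit-detected and 20 of 489 others at 8 weeks. Cd160 was found at 16 weeks in 0 of 92 Lag3-detected cells (0% to 3.93%) and 7 of 530 others. With Tigit it was found in 1 of 88 detected and 6 of 534 other cells at that age. At 8 weeks it was found in 4 of 73 Ctla4-detected and 10 of 534 other cells. All cells were read at the same depth, and whether the classes differ in these contrasts was not tested.

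**Figure D2:**
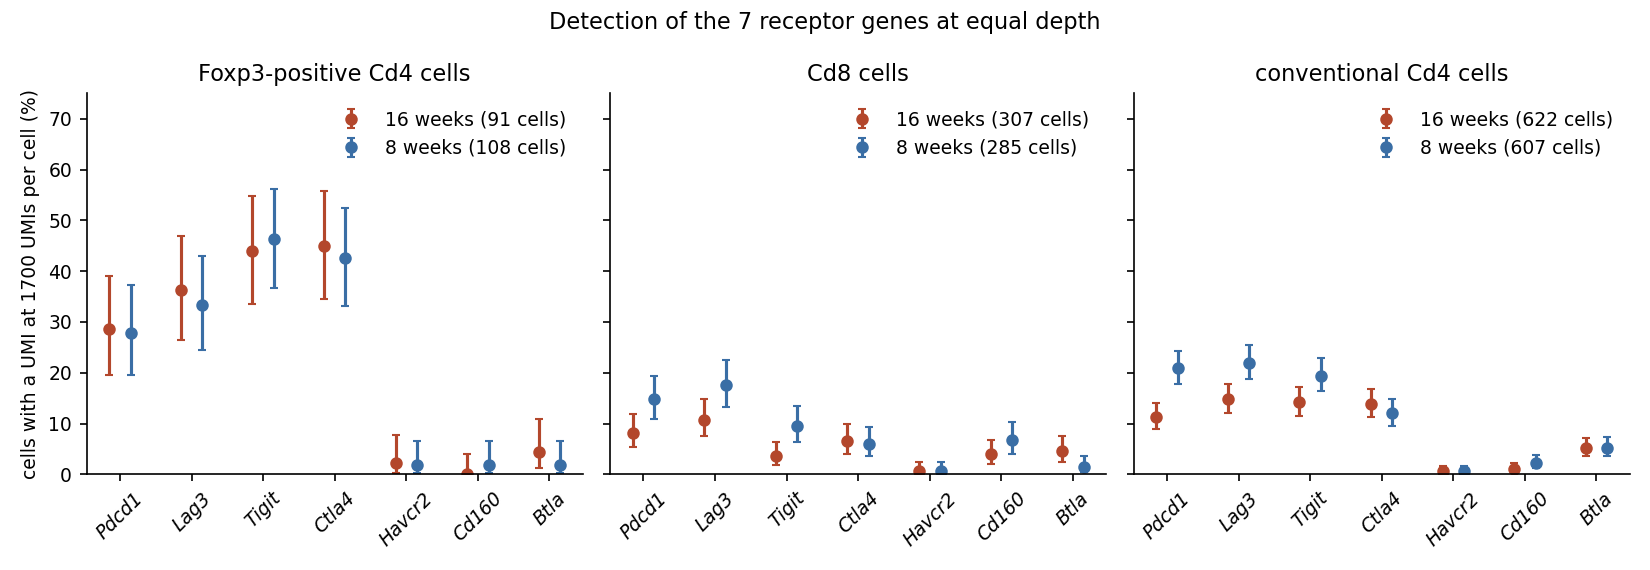
Points give the percentage of cells with a UMI of each gene at 1700 UMIs per cell, with exact 95% binomial intervals, at 16 weeks (left of each pair) and 8 weeks, in 3 classes. Pdcd1, Lag3 and Tigit sit lower at 16 weeks in Cd8 and in conventional Cd4 cells, while the Foxp3-positive pairs overlap for every gene.

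Ctla4, the competitor of Cd28, had the largest ratio of Foxp3-positive over conventional Cd4 cells among the receptor genes with enough UMIs. It was detected at equal depth in 45.1% of Foxp3-positive cells at 16 weeks and 42.6% at 8 weeks, in 6.51% and 5.96% of Cd8 cells, and in 86 of 622 and 73 of 607 conventional Cd4 cells. Its level was 498 CPM (447 to 553) and 537 CPM (490 to 588) in Foxp3-positive cells. In Cd8 cells it was 60.6 CPM (48.2 to 75.2) and 72.1 CPM (58.6 to 87.6), and in conventional Cd4 cells 161 CPM (146 to 177) and 128 CPM (116 to 141), at 16 and 8 weeks. The Foxp3-positive classes were the highest and did not differ between the ages beyond their intervals, conventional Cd4 cells came next, and Cd8 cells were the lowest. The log2 ratio of Foxp3-positive over conventional Cd4 cells was 1.63 at 16 weeks (1.42 to 1.83) and 2.07 at 8 weeks (1.87 to 2.26).

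Tigit, the receptor for Cd155, followed the same order. It was detected in 44.0% and 46.3% of Foxp3-positive cells, 3.58% and 9.47% of Cd8 cells, and 14.1% and 19.4% of conventional Cd4 cells at 16 and 8 weeks. Levels were 383 and 458 CPM in Foxp3-positive cells, 59.1 and 141 CPM in Cd8 cells, and 169 and 209 CPM in conventional Cd4 cells. The log2 ratio of Foxp3-positive over conventional Cd4 cells was 1.18 at 16 weeks (0.95 to 1.40) and 1.13 at 8 weeks (0.95 to 1.31). Pdcd1 and Lag3 had smaller ratios. For Pdcd1, the gene of PD-1, the log2 ratio was 0.28 at 16 weeks (-0.03 to 0.58) and 0.18 at 8 weeks (-0.06 to 0.41), and both intervals include 0. Without cells of at least 2 beta chains the Pdcd1 ratio at 16 weeks turned to -0.22. For Lag3, whose product binds MHC class II, it was 0.39 (0.17 to 0.61) and 0.56 (0.37 to 0.75). At equal depth, Pdcd1 was detected at 16 weeks in 28.6% of Foxp3-positive and 11.3% of conventional Cd4 cells, a difference of 17.3 percentage points (8.61 to 27.6), and at 8 weeks in 27.8% and 20.9%, a difference of 6.86 (-1.45 to 16.5). Lag3 was detected in 36.3% of Foxp3-positive and 14.8% of conventional Cd4 cells at 16 weeks, a difference of 21.5 percentage points (11.9 to 32.0), and in 33.3% and 21.9% at 8 weeks, a difference of 11.4 (2.54 to 21.3).

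A gene was counted as higher or lower where its CPM differed by 1.5-fold (log2 0.58) or more, and only genes with 50 or more UMIs over both groups were counted. Of the 5 receptor genes with enough UMIs in Foxp3-positive and conventional Cd4 cells at 16 weeks, 2 were higher in Foxp3-positive cells (Tigit and Ctla4) and 1 was lower (Btla). Of all 6007 genes counted in that comparison, 11.7% were higher and 5.54% lower. The split was 8.37% and 8.21% with median-of-ratios scaling, a scaling that sets the middle gene to no change, and the median log2 ratio of all genes was 0.11. At 8 weeks, 2 of 6 receptor genes were higher (Tigit and Ctla4) and 1 lower (Cd160), against 9.91% and 6.23% of all genes, or 7.74% and 8.05% with median-of-ratios scaling. The Btla value at 16 weeks rested on 13 UMIs in Foxp3-positive cells and 84 in conventional Cd4 cells, with a log2 ratio of -0.71 (-1.72 to 0.10). The Cd160 value at 8 weeks rested on 7 and 53 UMIs and changed sign without the cells of at least 2 beta chains (0.13) and without conventional Cd4 cells with Il2ra or Ikzf2 UMIs (0.11).

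Cd160, a receptor for HVEM found mainly on cytotoxic lymphocytes, was the receptor gene that was higher in Cd8 cells. In Cd8 cells its level was 43.6 and 73.5 CPM at 16 and 8 weeks, from 59 and 102 UMIs. In conventional Cd4 cells it was 5.62 and 17.1 CPM, from 15 and 53 UMIs. The log2 ratio was 2.92 (2.12 to 3.88) at 16 weeks and 2.10 (1.61 to 2.61) at 8 weeks. Foxp3-positive cells held 3 and 7 Cd160 UMIs at 16 and 8 weeks. Klrc1, the NKG2A receptor chain also typical of cytotoxic cells, was higher in the same comparison, with 70.9 CPM in Cd8 cells and 1.87 CPM in conventional Cd4 cells at 16 weeks and 94.4 and 6.45 CPM at 8 weeks.

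At 16 weeks, 4 of 6 receptor genes were lower in Cd8 than in conventional Cd4 cells and 1 was higher, against 8.42% and 4.09% of all genes. Pdcd1 stood at 87.2 CPM in Cd8 cells and 138 CPM in conventional Cd4 cells, a log2 ratio of -0.66 (-0.98 to -0.36). Lag3 had a ratio of -1.12 (-1.39 to -0.87), Tigit of -1.51 (-1.88 to -1.17) and Ctla4 of -1.40 (-1.77 to -1.07). At 8 weeks, 3 of 6 were lower and 1 higher, against 8.55% and 5.05% of all genes. The lower genes at 8 weeks were Lag3 (-0.64, -0.87 to -0.43), Ctla4 (-0.82, -1.16 to -0.51) and Btla (-1.21, -1.95 to -0.58), whereas Pdcd1 (-0.19, -0.41 to 0.02) and Tigit (-0.56) were within 1.5-fold. The Il2ra- or Ikzf2-positive cells were then left out of conventional Cd4 cells, but not of Cd8 cells. Only 2 receptor genes then passed the fold at each age, 1 higher and 1 lower, and Ctla4 at 8 weeks turned to 0.41. Cells with Il2ra or Ikzf2 UMIs were 140 of 649 conventional Cd4 cells at 16 weeks and 218 of 658 at 8 weeks. They held 2 or more receptor genes at equal depth in 43.0% and 42.2% of cells, against 9.86% and 14.5% of the conventional Cd4 cells without these UMIs. Il2ra and Ikzf2 were read before thinning, and the cells with them were deeper, with medians of 4838 and 5403 against 2857 and 2770 UMIs. At least 2 beta chains were found in 46 of 140 and 37 of 218 of them, against 39 of 509 and 21 of 440. Dividing cells were 17.9% and 18.3%, against 3.73% and 5.23%. The part of these differences in the split was not tested.

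Btla, a partner of HVEM on lymphocytes, and Havcr2 were sparse. Btla was detected at equal depth in 4.40% and 1.85% of Foxp3-positive cells, 4.56% and 1.40% of Cd8 cells, and 5.14% and 5.27% of conventional Cd4 cells at 16 and 8 weeks. Its levels were 18.7 and 27.1 CPM in Foxp3-positive cells, 22.9 and 16.6 CPM in Cd8 cells, and 31.5 and 39.0 CPM in conventional Cd4 cells, with conventional Cd4 cells the highest at both ages, although their interval at 16 weeks (25.1 to 39.0) overlaps that of Cd8 cells (15.6 to 32.5). Havcr2 had 7 and 17 UMIs in Foxp3-positive cells, 12 and 5 in Cd8 cells, and 13 and 19 in conventional Cd4 cells. A single conventional Cd4 cell gave 6 of the 13 Havcr2 UMIs at 16 weeks and a single Cd8 cell 6 of the 12. At most 2.20% of cells of any class held a Havcr2 UMI after thinning, too few to order the classes.

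Co-detection was lower at 16 weeks in conventional Cd4 cells at 1700 UMIs per cell, lower in Cd8 cells with an interval that just includes 0, and not resolved in Foxp3-positive cells. Cd8 cells with 2 or more genes were 31 of 307 (10.1%) at 16 weeks and 44 of 285 (15.4%) at 8 weeks, a difference of -5.34 percentage points (-10.8 to 0.04), which was -3.52 at 1000 UMIs per cell and -11.3 without thinning. Conventional Cd4 cells differed by -6.85 percentage points (-11.3 to -2.34), and by -4.61 without the cells with Il2ra or Ikzf2 UMIs, which were fewer at 16 weeks. At 1000 UMIs per cell that difference was -2.04, with an interval that includes 0, and it was -2.47 with the 16-week cells weighted to the clone states of the 8-week cells, so it is not larger than counting error under every setting. Foxp3-positive cells differed by 2.75 percentage points (-11.0 to 16.3), an interval too wide to show equality or the size seen in the other classes. Whether the classes differ in their change with age was not tested.

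Among Cd8 cells, 3 of 6 receptor genes were lower at 16 weeks and none was higher, against 5.98% of all genes lower and 3.11% higher (4.42% and 4.23% with median-of-ratios scaling). At 16 weeks Tigit stood at 59.1 CPM (46.9 to 73.6), against 141 CPM (122 to 162) at 8 weeks, a log2 ratio of -1.25 (-1.65 to -0.87). Pdcd1 stood at 87.2 CPM (72.2 to 104) at 16 weeks and 178 CPM (156 to 202) at 8 weeks, a ratio of -1.03 (-1.36 to -0.71). Of the 118 Pdcd1 UMIs at 16 weeks, 22 came from 1 cell, and without the top cell at each age the ratio was -1.22. Cd160 had a ratio of -0.75 (-1.24 to -0.28), and Lag3, at 116 and 162 CPM at 16 and 8 weeks, one of -0.48 (-0.79 to -0.18), within the fold. Ctla4 had 82 and 100 UMIs and Btla 31 and 23 UMIs, and both ratios, -0.25 and 0.46, had intervals that include 0. The equal-depth shares of Pdcd1 (8.14% and 14.7%), Lag3 (10.7% and 17.5%) and Tigit (3.58% and 9.47%) in Cd8 cells differed in the same direction at 16 and 8 weeks. That of Btla went the other way, with 14 of 307 and 4 of 285 cells.

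**Figure D3:**
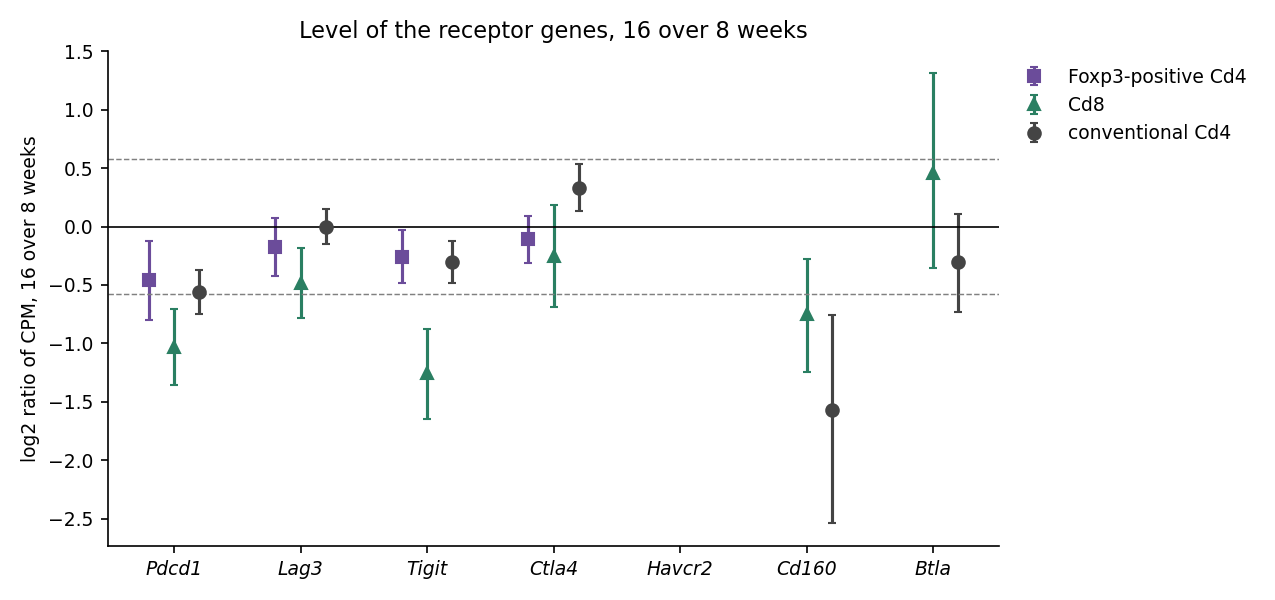
Points give the log2 ratio of CPM, 16 over 8 weeks, of each receptor gene with 50 or more UMIs, with exact 95% intervals for counting error, in Foxp3-positive, Cd8 and conventional Cd4 cells. Dashed lines mark 1.5-fold. The Cd8 points of Pdcd1, Tigit and Cd160 and the conventional Cd4 point of Cd160 lie below the lower line, and Havcr2 had too few UMIs to be drawn.

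For conventional Cd4 cells, 1 of 6 receptor genes was lower at 16 weeks and none was higher, against 4.39% and 3.59% of all genes (3.58% and 4.79% with median-of-ratios scaling). The gene was Cd160, with 15 UMIs at 16 weeks and 53 at 8 weeks and a log2 ratio of -1.57 (-2.54 to -0.76). Without cells with Il2ra or Ikzf2 UMIs its ratio was -0.71, on too few UMIs to be counted, and 0 receptor genes passed. At 16 weeks Pdcd1 had 138 CPM (125 to 153), against 204 CPM (188 to 220) at 8 weeks, a ratio of -0.56 (-0.75 to -0.37), just inside the fold, and passed it under several alternatives. Tigit had a ratio of -0.30 (-0.48 to -0.13). Ctla4 went the other way, with 161 and 128 CPM at 16 and 8 weeks and a ratio of 0.33 (0.13 to 0.53), although its equal-depth shares differed by 1.80 percentage points with an interval that includes 0 (-1.97 to 5.56). Lag3 gave no order of the ages. Its level was the same at both ages (253 and 254 CPM), while it was detected in 14.8% of cells at 16 weeks and 21.9% at 8 weeks, and 1 cell held 51 of its 675 UMIs at 16 weeks. Pdcd1 was detected in 11.3% and 20.9% of these cells at 16 and 8 weeks, a difference of -9.67 percentage points (-13.8 to -5.58).

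The Foxp3-positive cells held 117 Pdcd1 UMIs at 16 weeks and 204 at 8 weeks, 168 and 231 CPM, with a log2 ratio of -0.46 (-0.80 to -0.12). Without cells of at least 2 beta chains that ratio was -1.08, past the fold. Of the 4 receptor genes with enough UMIs in all Foxp3-positive cells, 0 were higher and 0 lower, against 5.24% of all genes higher and 6.12% lower (6.76% and 4.91% with median-of-ratios scaling). Lag3 had 331 and 374 CPM, of which 41 of 331 UMIs at 8 weeks came from 1 cell, and its ratio of -0.17 had an interval that includes 0 (-0.42 to 0.07). Dividing cells, called by UMIs of cell cycle genes, moved with age in every class, at 15.1% and 27.6% of Foxp3-positive cells, 4.66% and 10.5% of Cd8 cells, and 6.78% and 9.57% of conventional Cd4 cells at 16 and 8 weeks. Without dividing cells the Pdcd1 ratio was -1.40 in Cd8 cells and -0.72 in conventional Cd4 cells, and the Ctla4 ratio in conventional Cd4 cells was 0.07.

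Conventional Cd4 cells of expanded clones at both ages, and Cd8 cells of expanded clones at 8 weeks, carried more receptor genes than cells whose receptor was seen once. A paired alpha and beta chain was found in 1396 cells at 16 weeks and 1362 at 8 weeks, in 1337 and 1228 clones, of which 37 and 65 were expanded, meaning 2 or more cells. The largest clones had 7 cells at 16 weeks and 14 at 8 weeks. Expanded clones held 7.06% and 13.1% of paired Foxp3-positive cells, 3.91% and 12.2% of paired Cd8 cells, and 10.8% (8.18% to 13.8%) and 22.5% (18.9% to 26.4%) of paired conventional Cd4 cells. Clones were counted within libraries of limited size, so a cell seen once may belong to a clone that is larger in the tissue.

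Expanded conventional Cd4 cells held 2 or more receptor genes in 31 of 53 cells at 16 weeks (58.5%) and in 66 of 113 at 8 weeks (58.4%), read at equal depth. Cells with a receptor seen once held them in 67 of 440 cells at 16 weeks (15.2%) and 63 of 369 at 8 weeks (17.1%). The difference was 43.3 percentage points at 16 weeks (29.4 to 55.9) and 41.3 at 8 weeks (31.2 to 50.7). The share was higher in each larger class of clone size. It was 15.2% for clones of 1 cell, 42.3% for 2 cells, 60.0% for 3 to 4 cells and 91.7% (11 of 12 cells) for 5 or more cells at 16 weeks, and 17.1%, 45.2%, 54.5% and 76.3% at 8 weeks. Pdcd1 alone did not rise throughout. At equal depth it was detected in 9.77%, 34.6%, 53.3% and 16.7% of cells in these size classes at 16 weeks. The shares at 8 weeks were 15.2%, 42.9%, 45.5% and 42.1%. Among the 12 cells of the largest size at 16 weeks, Pdcd1 was detected in 2, Lag3 and Tigit each in 9, and Ctla4 in 6. Cells of a clone share their origin and are not independent, and the 12 cells of the largest size at 16 weeks came from 3 clones. Expanded cells were also deeper before thinning, with medians of 4760 and 4925 UMIs against 3238 and 3325 UMIs in single cells, and more often dividing (24.1% and 19.3% against 6.03% and 8.65%). Without dividing cells the differences were 53.7 and 40.7 percentage points, and without conventional Cd4 cells with Il2ra or Ikzf2 UMIs they were 32.9 and 41.0. At 1000 UMIs per cell they were 28.8 and 22.4.

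**Figure D4:**
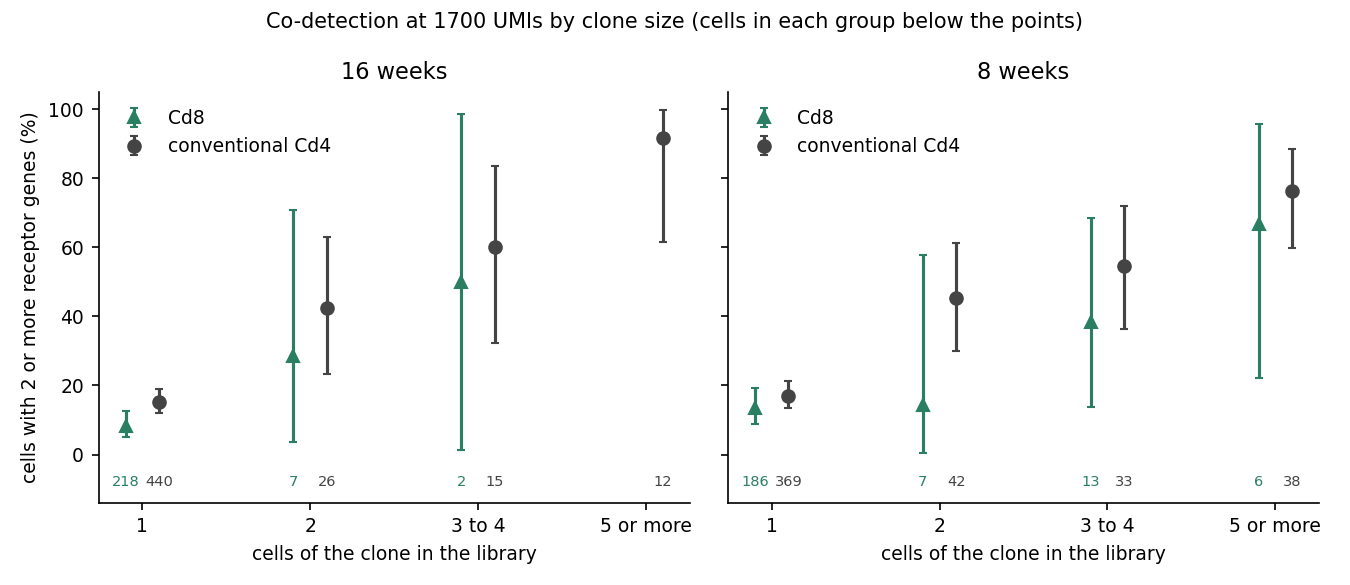
Points give the percentage of Cd8 (triangles) and conventional Cd4 cells (circles) with 2 or more of the 7 receptor genes at 1700 UMIs per cell against the size of the clone in the library, at 16 weeks (left panel) and 8 weeks (right panel), with exact 95% intervals and the number of cells under each point. Conventional Cd4 points lie at 15.2%, 42.3%, 60.0% and 91.7% at 16 weeks and at 17.1%, 45.2%, 54.5% and 76.3% at 8 weeks, from single cells to clones of 5 or more.

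Expanded over single, 4 of 5 receptor genes were higher in conventional Cd4 cells at 16 weeks and none was lower, against 14.0% of all genes higher and 10.9% lower (9.99% and 13.6% with median-of-ratios scaling). At 8 weeks 5 of 6 were higher and none was lower, against 8.43% and 6.81%. Lag3 stood at 702 CPM in expanded cells and 204 CPM in single cells at 16 weeks, and at 474 and 181 CPM in these cells at 8 weeks, log2 ratios of 1.78 (1.54 to 2.02) and 1.39 (1.17 to 1.61). Tigit stood at 426 CPM in expanded and 151 CPM in single cells at 16 weeks, and at 336 and 177 CPM in these at 8 weeks, ratios of 1.5 (1.19 to 1.80) and 0.92 (0.68 to 1.16). For Pdcd1 the levels were 320 CPM in expanded and 125 CPM in single cells at 16 weeks, and 354 and 155 CPM in these at 8 weeks, ratios of 1.36 (1.01 to 1.70) and 1.19 (0.94 to 1.43). Ctla4 had ratios of 0.88 at 16 weeks (0.52 to 1.22) and 0.87 at 8 weeks (0.55 to 1.19).

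Cd160 had 24 UMIs in expanded and 26 in single conventional Cd4 cells at 8 weeks, a ratio of 1.17 (0.30 to 2.02) that was 0.39 without cells of at least 2 beta chains, and 0 and 13 UMIs at 16 weeks, when no fold is given. Btla was within the fold, with ratios of -0.02 (-1.20 to 0.90) at 16 weeks and 0.29 (-0.35 to 0.89) at 8 weeks. At equal depth it was detected in 2 of 53 expanded and 24 of 440 single cells at 16 weeks, and in 11 of 113 expanded (9.73%) and 12 of 369 single cells (3.25%) at 8 weeks, a difference there of 6.48 percentage points (1.66 to 13.5). Havcr2 had 9 UMIs in 54 expanded cells and 4 in 448 single cells at 16 weeks, and 14 UMIs in 114 expanded cells and 5 in 393 single cells at 8 weeks. Those 9 UMIs came from 2 cells and the 14 UMIs from 10 cells.

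In Cd8 cells the same contrast could be read at 8 weeks, when 10 of 26 expanded cells (38.5%) and 25 of 186 single cells (13.4%) held 2 or more genes, a difference of 25.0 percentage points (8.02 to 44.5). Of 5 receptor genes 4 were higher in expanded Cd8 cells and none was lower, against 17.8% of all genes higher and 9.38% lower. That split was 10.03% and 13.9% with median-of-ratios scaling, and the median of all genes was 0.17. Tigit had 341 CPM in expanded and 121 CPM in single Cd8 cells, a log2 ratio of 1.5 (1.04 to 1.95), and Pdcd1 had 362 CPM in expanded and 160 CPM in single cells, a ratio of 1.19 (0.75 to 1.60). Lag3 had a ratio of 0.78 (0.28 to 1.25) and Cd160 of 0.77 (-0.004 to 1.45), while Ctla4 was within the fold at 0.34 (-0.58 to 1.12). Expanded Cd8 cells at 8 weeks were also deeper, with a median of 5821 UMIs against 3553 in single cells, and more often dividing, at 38.5% against 10.2%, and without dividing cells the difference was 36.8 percentage points. Without thinning it was 64.6. At 16 weeks 3 of 9 expanded and 18 of 218 single Cd8 cells held 2 or more genes. For Foxp3-positive cells the counts were 3 of 6 expanded and 41 of 77 single cells at 16 weeks, and 10 of 13 and 37 of 83 at 8 weeks, a difference of 32.3 percentage points (3.14 to 50.4). These expanded groups were too small to compare between ages.

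**Figure D5:**
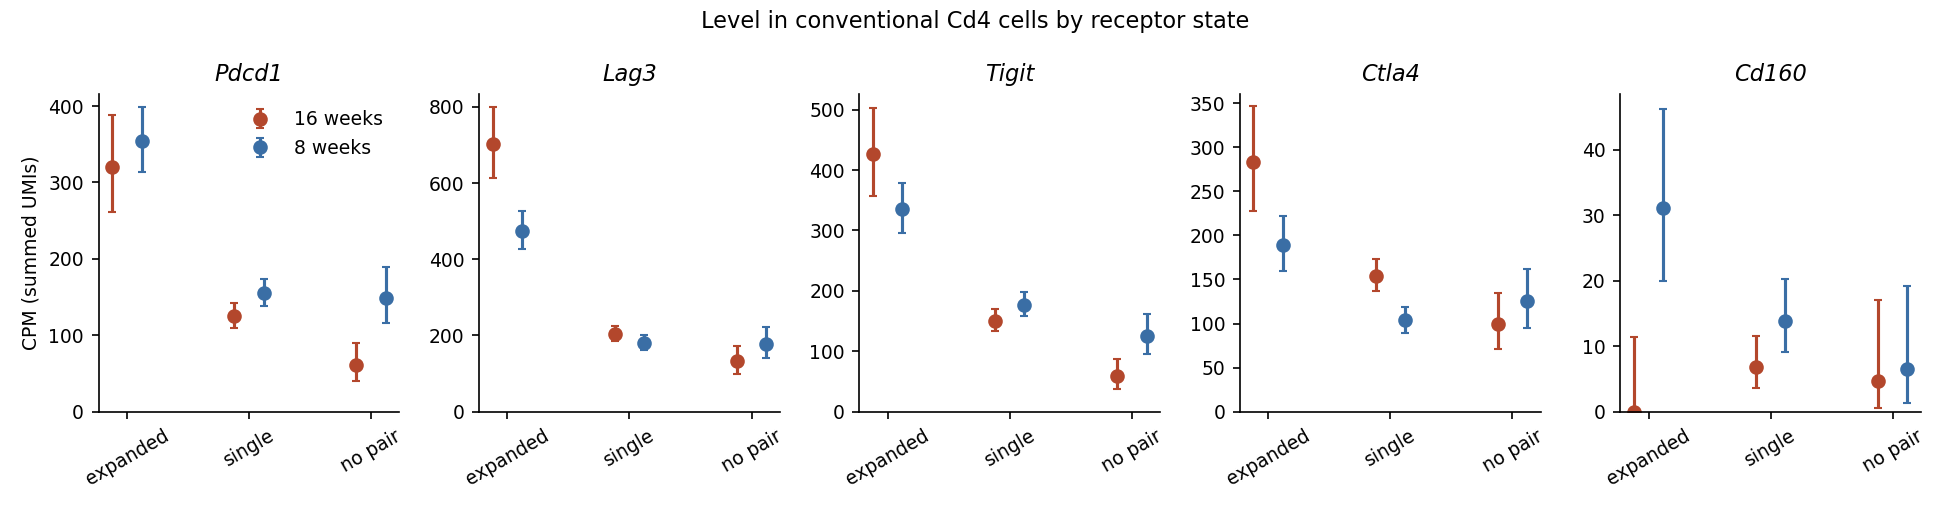
Points give CPM of 5 receptor genes in conventional Cd4 cells of expanded clones, with a receptor seen once, and without a paired receptor, at 16 weeks (left of each pair) and 8 weeks, with exact 95% Poisson intervals. Pdcd1, Lag3, Tigit and Ctla4 are highest in expanded cells at both ages, for example Lag3 at 702 and 474 CPM against 204 and 181 CPM in single cells.

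The share of expanded cells differed between the ages, so the ages were also compared within a clone state. Expanded cells differed by 0.08 percentage points in the share with 2 or more genes, 58.5% at 16 weeks and 58.4% at 8 weeks (-15.9 to 15.4). Single cells differed by -1.85 percentage points (15.2% and 17.1%, -7.02 to 3.21), and cells with no paired receptor by -6.60 (6.20% and 12.8%, -14.2 to 0.72). With the 16-week cells weighted to the clone states of the 8-week cells, an alternative added after the values were seen, the difference was -2.47 percentage points in place of -6.85. In single Cd8 cells the difference was -5.18 percentage points (8.26% and 13.4%, -11.6 to 0.89), against -5.34 over all Cd8 cells. Pdcd1 in single Cd8 cells had 66.0 CPM at 16 weeks and 160 CPM at 8 weeks, a log2 ratio of -1.27 (-1.71 to -0.85), and Tigit 55.1 and 121 CPM at these ages, a ratio of -1.12 (-1.62 to -0.66). Ctla4 had 283 CPM at 16 weeks and 189 CPM at 8 weeks in expanded conventional Cd4 cells, a ratio of 0.58 (0.19 to 0.97) at the edge of the fold, and 154 and 104 CPM in single cells, a ratio just inside the fold. Its equal-depth shares differed by 7.95 percentage points in expanded (-5.33 to 22.7) and by 3.38 in single cells (-1.13 to 7.78), and both intervals include 0, so no order is read from it. Lag3 in expanded conventional Cd4 cells had a ratio of 0.57 (0.32 to 0.81), while it was detected in 24 of 53 such cells at 16 weeks and 62 of 113 at 8 weeks, so no order is read from it.

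The clones shown above illustrate the range. In the 8-week clone of TRAV21-DV12 and TRBV13-2, 12 of 14 cells held 2 or more receptor genes at equal depth, and Lag3 was found in 13 cells (62 UMIs), Tigit in 12, Pdcd1 in 11 and Ctla4 in 5 before thinning. Of these 14 cells 12 were conventional Cd4 and 1 was Cd8 by its UMIs. In the 16-week clone of TRAV5-4 and TRBV19, all 6 cells were conventional Cd4, and 5 of 6 held 2 or more genes at equal depth. Before thinning, Pdcd1 and Lag3 were found in all 6. At equal depth, Pdcd1 was found in 2 of the 12 conventional Cd4 cells of 16-week clones of 5 or more cells, which include this clone. All 5 cells of the TRAV16N and TRBV17 clone were Cd8, and 3 of them held 2 or more genes at equal depth. Before thinning, Pdcd1 and Lag3 were found in 5 cells of this clone, Tigit in 3 and Cd160 in 2. The largest 16-week clone had 7 cells with a median of 11041 UMIs, and 3 of its cells held both Cd4 and Cd8 UMIs, so it is given as a count only, with 4 of 7 cells holding 2 or more genes at equal depth. Of conventional Cd4 clones with at least 2 cells at equal depth, all cells held 2 or more genes in 5 of 19 clones at 16 weeks and 8 of 32 at 8 weeks, some cells did in 8 and 16 clones, and none did in 6 and 8. A single clone was found in both libraries, with 2 conventional Cd4 cells at each age and no shared barcode, and 15 and 4 Ctla4 UMIs and 6 and 6 Lag3 UMIs at 16 and 8 weeks.

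Genes around the receptors were read from 5 lists, of other inhibitory receptors, ligands, signal mediators, costimulatory counterparts and regulators. The regulators are transcription factors of activation, memory and exhaustion. Expanded over single in conventional Cd4 cells, 8 of 13 regulators were higher and 1 lower at 16 weeks, with a median log2 ratio of 0.79, and 5 of 14 were higher and 1 lower at 8 weeks, with a median of 0.34, against medians of 0.09 and 0.05 over all genes. Of all genes 14.0% were higher and 10.9% lower at 16 weeks, or 9.99% and 13.6% with median-of-ratios scaling, and 8.43% and 6.81% at 8 weeks. Irf4, a factor induced by receptor signals, had ratios of 1.28 (0.32 to 2.13) and 1.01 (0.16 to 1.84). Nr4a2, an orphan nuclear receptor of the same response, had 74.6 CPM in expanded and 21.3 CPM in single cells at 16 weeks, a ratio of 1.82 (1.02 to 2.57). Id3, an inhibitor of E proteins, had a ratio of 1.09 at 16 weeks, and Nfatc1 (0.88) and Maf (0.86) were among the largest at 8 weeks. Tcf7, the gene of the stem-like factor TCF1, had 177 CPM in expanded and 232 CPM in single cells at 16 weeks and 179 and 218 CPM at 8 weeks, ratios of -0.38 and -0.28, within the fold. By age, 1 of 18 regulators was higher in conventional Cd4 cells at 16 weeks and none was lower, against 3.59% and 4.39% of all genes. It was Nr4a3, with 18.7 and 9.68 CPM at 16 and 8 weeks.

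The signal mediators are enzymes and adaptors that inhibitory receptors use or oppose. In expanded over single conventional Cd4 cells, 3 of 15 were higher and 2 lower at 16 weeks, and 2 of 15 were higher and 1 lower at 8 weeks. Over all genes 14.0% were higher and 10.9% lower at 16 weeks and 8.43% and 6.81% at 8 weeks, so the mediators as a list were near the background. Ptpn11, the phosphatase SHP-2 that docks to PD-1, had 75 UMIs in 54 expanded and 202 in 448 single cells at 16 weeks and 144 in 114 and 197 in 393 at 8 weeks, ratios of 1.16 (0.75 to 1.54) and 0.83 (0.51 to 1.15). Sh2d1a, the adaptor SAP, had ratios of 0.98 and 0.53, and Inpp5d, the lipid phosphatase SHIP-1, one of -0.98 at 16 weeks. Lck, the kinase that PD-1 signalling opposes, was within the fold (0.26 and 0.11). Ptpn11 was lower in Foxp3-positive than in conventional Cd4 cells, at 63.1 and 128 CPM at 16 weeks and 52.0 and 125 CPM at 8 weeks. By age, none of the 15 mediators passed the fold in conventional Cd4 cells, and 1 was lower in Cd8 cells at 16 weeks, the adaptor Dok1 (16.3 and 39.6 CPM, -1.27).

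Of the other inhibitory receptors, none of 5 was higher in expanded than in single conventional Cd4 cells at either age, and 2 were lower at 16 weeks and 1 at 8 weeks, against 10.9% and 6.81% of all genes lower. Cd5, a damper of receptor signals, had 342 and 272 CPM in expanded and single cells at 16 weeks and 315 and 276 CPM at 8 weeks. Pecam1 was lower in expanded cells at both ages, on 3 UMIs in expanded cells at 16 weeks and 15 at 8 weeks, with ratios of -2.14 (-4.66 to -0.77) and -0.98 (-1.93 to -0.21). Cd96, a receptor of the Tigit and Cd226 family, was the other lower gene at 16 weeks, with 34.2 CPM in expanded and 64.0 CPM in single cells (-0.85, -1.94 to -0.01), and had 59.6 and 65.6 CPM in these cells at 8 weeks. Cd6, a scavenger-type receptor, and Vsir, the gene of VISTA, were within the fold. Among costimulatory counterparts, Tnfrsf4 (OX40) was higher in expanded conventional Cd4 cells, with ratios of 1.03 and 0.68, and in Foxp3-positive over conventional Cd4 cells, with 1.36 and 1.48. Tnfrsf9 (4-1BB) had ratios of 2.18 and 2.34 in Foxp3-positive over conventional Cd4 cells. Cd226, the activating partner that competes with Tigit, had 15.6 CPM in expanded and 33.1 CPM in single conventional Cd4 cells at 8 weeks, a ratio of -1.04 (-2.12 to -0.18).

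T cells also carried RNA of receptor ligands. Of the ligand list, 1 of 5 genes was lower at 16 weeks in Foxp3-positive cells, 1 of 5 in Cd8 cells and 1 of 6 in conventional Cd4 cells, against 6.12%, 5.98% and 4.39% of all genes. In each class it was Lgals3, galectin-3, reported as a ligand of Lag3. Its level was 54.5 and 116 CPM in Foxp3-positive cells at 16 and 8 weeks (-1.08, -1.67 to -0.55), 58.4 and 201 CPM in Cd8 cells (-1.78, -2.16 to -1.42), and 36.4 and 80.6 CPM in conventional Cd4 cells (-1.14, -1.5 to -0.80). Pdcd1lg2, the PD-1 ligand PD-L2, had 55.9 CPM in expanded and 24.4 CPM in single conventional Cd4 cells at 16 weeks and 57.0 and 32.6 CPM at 8 weeks, ratios of 1.22 (0.32 to 2.01) and 0.81 (0.22 to 1.39). Lgals9 and Hmgb1, described as ligands of Tim-3, were within the fold by age in Cd8 and conventional Cd4 cells.

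RNA of other cell types was present, and some of it moved with the groups compared. Acinar genes summed to 198 and 120 CPM in Foxp3-positive cells, 163 and 68.5 CPM in Cd8 cells, and 126 and 151 CPM in conventional Cd4 cells at 16 and 8 weeks, with all 11 list genes seen in each class except 9 of 11 in Cd8 cells at 8 weeks. B cell genes summed to 5.74 and 9.05 CPM, 36.2 and 21.6 CPM, and 4.12 and 15.2 CPM in the same classes, and Cd79a and Ms4a1 were at 0 in Foxp3-positive and Cd8 cells at both ages. The myeloid list gave at most 13.7 CPM in any class, with Adgre1 at 0 throughout, and Foxp3 UMIs were seen in 4.97% and 5.07% of Cd8 cells. Endocrine genes, 5 in the list, summed to 57.4 and 19.2 CPM in Foxp3-positive cells, 8.87 and 6.49 CPM in Cd8 cells, and 9.37 and 5.16 CPM in conventional Cd4 cells at 16 and 8 weeks. By clone size, acinar genes summed to 87.0 CPM in expanded and 111 CPM in single conventional Cd4 cells at 16 weeks, and to 22.0 and 204 CPM in these at 8 weeks. The list of 5 NK and innate-like genes summed to 157 CPM in expanded and 59.2 CPM in single Cd8 cells at 8 weeks. In the expanded cells all 30 of these UMIs were of Eomes, and Ncr1, Klrb1c, Klra8 and Zbtb16 were at 0. That sum thus rests on 1 gene and does not by itself show RNA of another cell type. The part of endocrine RNA, and of RNA of the NK and innate-like list, in the receptor results was not tested. Without cells with acinar or B cell UMIs the difference between expanded and single conventional Cd4 cells was 45.5 percentage points at 16 weeks and 40.8 at 8 weeks. Without these cells the age ratios of Pdcd1 were -0.92 in Cd8 and -0.61 in conventional Cd4 cells.

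Likeness between genes was described across cell groups. Over 13 groups of class, age and clone state with 20 or more cells, Pearson's r of log2(CPM + 10) was 0.92 for Lag3 and Tigit, 0.90 for Pdcd1 and Tigit, and 0.86 for Pdcd1 and Lag3. Ctla4 stood closer to Tigit (0.79) and Lag3 (0.77) than to Pdcd1 (0.50), while Cd160 and Btla had r of -0.67. Among 5064 genes with 200 or more UMIs, those most like Pdcd1 were Dap (0.97), Myl6 and Tceb1, those most like Lag3 were Ndfip1 (0.96), Ucp2 and Ptms, and those most like Tigit were Acot7 (0.95), Aes and Rac2. Ctla4 was nearest to Nfil3 (0.93), Gng5 and Cst3, Cd160 to Ostf1 (0.93), Xcl1 and Klrc1, and Btla to Evi2a (0.92), Bphl and Rpl29. The groups share libraries and differ in depth, so these values describe the groups and carry no test.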

How the data were processed

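Single-cell RNA and T cell receptor libraries were prepared with a droplet kit that reads the 5′ end, per the labels' protocols, 1 of each at 16 and 8 weeks. The deposited matrices hold whole UMI counts per gene and barcode, written by software version 3.0.1 per the file headers, and the genome build mm10 and the tool Seurat come from the submitters' processing notes. Which cells or doublets the authors removed was not given in the sources used here.

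Cells passed with at least 500 genes and at most 10% of UMIs from mitochondrial genes, no doublet caller was run, and cells of 2 or more beta chains were left out in an alternative. Counts were summed per class, and each cell was thinned once to 1700 UMIs. Ratios add 0.5 UMIs to each side, and genes with 50 or more UMIs over both sides were compared. Intervals are Clopper-Pearson for shares, Newcombe for differences, and exact Poisson or conditional binomial for levels, at 95%. Dividing cells held 2 or more UMIs of cell cycle genes, and cells with acinar or B cell UMIs held 3 or more. Named genes of each list were the 3 with the most UMIs and up to 3 with the largest ratios. The 7 genes, the lists and the classes were chosen with earlier results of these data known. Gene positions are from GENCODE M21. Python 3.11.15, numpy 2.4.6, pandas 2.3.3, scipy 1.17.1 and matplotlib 3.10.9 were used, and the thinning and interval code was tested on simulated data.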

Additional observations from a re-analysis of the deposited data

Results flagged for a closer look

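Cells with UMIs of both Cd4 and Cd8 genes, which belong to no class above, held 2 or more receptor genes at equal depth in 29 of 90 cells at 16 weeks (32.2%) and in 35 of 80 at 8 weeks (43.8%). Before thinning there were 90 and 81 such cells, with medians of 8659 and 9238 UMIs, and 65.6% and 55.6% of them had 2 or more beta chains.

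Cells with no UMI of Cd4, Cd8a or Cd8b1 held 2 or more receptor genes at equal depth in 49 of 673 cells at 16 weeks (7.28%) and in 90 of 609 at 8 weeks (14.8%). Before thinning there were 780 and 724 such cells, with medians of 2532 and 2464 UMIs. Both kinds of cell are listed because they lie outside the classes compared, and no comparison was made with them.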

How the results depend on the processing

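Of 110 alternative values of the co-detected shares 98 stayed within the counting interval of the value reported. The receptor genes past the fold, higher and lower together, gave 101 alternative counts. Of these, 89 were equal to the count reported or within 1.5-fold of it. With 1000 UMIs per cell the difference was -2.04 percentage points by age in conventional Cd4 cells, 13.8 for Foxp3-positive over conventional Cd4 cells at 16 weeks, and 28.8 and 22.4 for expanded over single conventional Cd4 cells at 16 and 8 weeks. With 2500 UMIs it was -11.9 for Cd8 over conventional Cd4 cells at 16 weeks. Without thinning it was -11.3 by age in Cd8 cells, 50.3 for Foxp3-positive over conventional Cd4 cells at 16 weeks, and 56.3 and 64.6 for expanded over single conventional Cd4 and Cd8 cells at 8 weeks. With expanded clones of 3 or more cells it was 58.8 in conventional Cd4 cells at 16 weeks. Without conventional Cd4 cells with Il2ra or Ikzf2 UMIs, Cd8 over conventional Cd4 cells turned to 0.24 and 0.97 percentage points, the receptor genes past the fold were 2 at each age, Ctla4 at 8 weeks turned to 0.41, and by age 0 genes passed in conventional Cd4 cells. Cd160 in Foxp3-positive over conventional Cd4 cells at 8 weeks turned to 0.11 there and to 0.13 without cells of 2 or more beta chains. By age in conventional Cd4 cells, 2 genes passed in place of 1 with the mean over cells, without the top cell, with the stricter cell filter, without acinar or B cell UMIs and without dividing cells. By age in Foxp3-positive cells, 1 passed in place of 0 with 20 or more UMIs, without cells of 2 or more beta chains and without dividing cells, and 2 with no minimum. The cause was not tested. Over 20 random thinnings the difference by age ran between -9.60 and -5.21 in conventional Cd4, -9.07 and -2.71 in Cd8 and -5.29 and 8.65 in Foxp3-positive cells. For expanded over single conventional Cd4 cells it ran between 29.4 and 44.5 at 16 weeks and between 28.7 and 42.1 at 8 weeks. In Cd8 cells at 8 weeks that contrast ran between 19.5 and 51.9.

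No paired analysis was possible because each age had 1 library of a kind. UMIs were few for Havcr2 in every class and for Cd160 and Btla in Foxp3-positive cells, and whether this reflects depth or low expression was not tested. Expanded Cd8 and Foxp3-positive cells were too few at 16 weeks.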
